A study of Mus musculus with 4 samples.

Results

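The miR-15, miR-16 and miR-195 family is a group of microRNAs that share 1 seed, the bases through which a microRNA recognises its targets. On the mouse arrays analysed here it comprised 6 members, mmu-miR-15a, mmu-miR-15b, mmu-miR-16, mmu-miR-195, mmu-miR-322 and mmu-miR-497, written below without the species prefix. They were chosen by name from 700 microRNA probes, each printed in 5 spots. The RNA came from tumours of 4T1, a mammary carcinoma line of mouse origin, in female mice of a strain that the labels spell Balb/s. Each of 20 mice was injected with 50000 cells orthotopically, and the primary tumour was irradiated or sham-treated at a size of 1 cm3 and later removed, after which metastases grew to the end point. The 4 groups were metastases of mice whose primary tumour had received 10 Gy, metastases of sham-treated mice, primary tumours after 10 Gy and primary tumours after sham treatment, with 10 mice in each treatment arm. All groups carried the same cell line, and the metastases themselves were not the irradiated site. Each group had 1 array, so no difference has a replicate check and no test between groups was made. The labels give neither the organ of the metastases nor the number of mice whose RNA entered an array.

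A microRNA guides Argonaute proteins to messenger RNAs whose 3′ untranslated regions pair with its seed, which lowers the output of those messengers. The family is known for holding back the cell cycle and survival: its targets include cyclins D and E, the checkpoint kinases Chek1 and Wee1 and the survival protein Bcl2. The human miR-15a and miR-16-1 locus is often deleted in chronic lymphocytic leukaemia, and in mouse heart miR-195 rises after birth as muscle cells leave the cycle.

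The mature sequences are shown because the shared seed, in capitals, defines the family, and the lower-case bases after it are what lets a probe tell the members apart. They are printed 5′ to 3′ and are those of RefSeq, which matched the probe targets of all 6 members exactly.
miR-15a: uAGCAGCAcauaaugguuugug
miR-15b: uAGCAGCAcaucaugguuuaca
miR-16: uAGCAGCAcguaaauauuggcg
miR-195: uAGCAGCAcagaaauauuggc
miR-322: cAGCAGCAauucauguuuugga
miR-497: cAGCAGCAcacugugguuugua
The 7 bases AGCAGCA stood at bases 2 to 8 of 7 of the 700 targets, which is 1% of them: the 6 members and miR-1907. The same 7 bases stood 1 place earlier in miR-103 and miR-107. Counted from base 1 at the 5′ end, miR-16 and miR-195 were identical at 19 of 21 bases and differed by G10A and U11G. miR-15a and miR-15b were identical at 18 of 22 bases and differed by A12C, G20A, U21C and G22A. Identity over the 15 pairs of members ranged from 50% for miR-16 and miR-497 to 90.5% for miR-16 and miR-195. Cross-hybridisation between such targets was not tested.

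The members lie in 4 genomic clusters (GRCm38.p6). miR-15a is at chr14:61632075-61632096 on the minus strand, in the long noncoding RNA gene Dleu2, and its hairpin is 54 bases from that of Mir16-1, whose miR-16 copy is at chr14:61631936-61631957. miR-15b is at chr3:69009775-69009796 on the plus strand, in Smc4, which encodes a condensin subunit, and its hairpin is 66 bases from Mir16-2, whose miR-16 copy is at chr3:69009918-69009939. The miR-16 copies have the same mature sequence, so the miR-16 probe reads both loci together. miR-195 (chr11:70235062-70235082) and miR-497 (chr11:70234730-70234751) are on the plus strand with 241 bases between their hairpins. miR-322, the mouse counterpart of human miR-424, is at chrX:53054306-53054327 on the minus strand, in the noncoding RNA gene C430049B03Rik, 200 bases from the hairpin of miR-503.

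The arrays differed in background, which bears on the dim members. In the order metastases 10 Gy, metastases sham, primary 10 Gy and primary sham, the empty spots had a median intensity of 252, 177, 417 and 171, and 339, 459, 186 and 337 of the 700 probes were detected, meaning that at least 3 of 5 spots exceeded the 95th percentile of the 180 empty spots. All 6 members were detected in both metastases samples, 5 of 6 in the sham primary tumour (all but miR-497) and 4 of 6 in the 10 Gy primary tumour (all but miR-322 and miR-497). The coefficient of variation of the members' spots was 11.1% to 19.2% on the metastases 10 Gy array and 2.40% to 11.9% on the others. Of 5 epithelial microRNAs fixed as markers (the miR-200 family), all were detected in both metastases samples and 1 in each primary tumour. Their summed intensity above the empty spots was 3659 and 6961 in metastases after 10 Gy and sham, against 65.5 and 65.7 in the primary tumours after 10 Gy and sham.

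**Figure D1:**
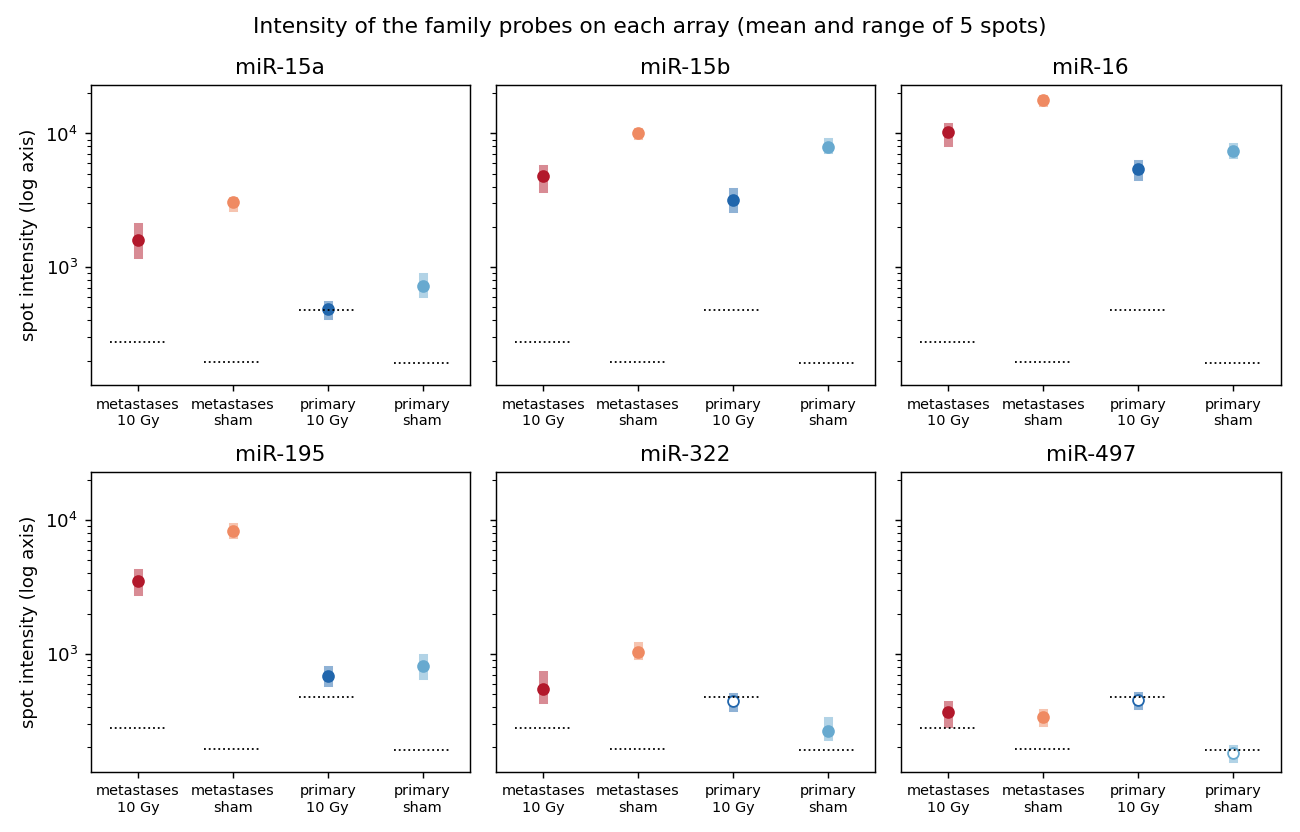
Intensity of the 6 members on the 4 arrays (vertical axis, arbitrary intensity units, log scale). Points are means of 5 spots, open where the probe was not detected, bars span the 5 spots and dotted lines mark each array's detection threshold; miR-195 averaged 3528 and 8365 in metastases after 10 Gy and sham, against 682 and 816 in primary tumours, while miR-497 lay near the threshold on each array.

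Averaged over the arms, miR-195 had the largest site difference of the 4 members detected on all arrays. It averaged 3528 intensity units in metastases after 10 Gy and 8365 in metastases after sham, against 682 in the primary tumour after 10 Gy and 816 after sham. All spots of both metastases arrays were brighter than all spots of both primary tumour arrays. In the 10 Gy primary tumour all 5 spots passed the threshold, but the mean was only 1.64 times the empty spots. The 10 Gy site difference thus rests on a dim level. After background correction and quantile normalization, which gives all arrays the same distribution of levels, miR-195 was higher in metastases by 2.86 ± 0.16 on the log2 scale in the sham arm (7.25-fold) and by 2.13 ± 0.17 in the 10 Gy arm (4.39-fold). The error after ± is the SD over 5 pairs of spots and covers scatter within the chips only. The sham difference was between 2.57 and 3.50 and the 10 Gy difference between 1.89 and 3.15 over 11 settings of background correction and scaling.

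miR-497, its cluster partner, was dim. It averaged 369 and 336 units in metastases after 10 Gy and sham, which was 1.46 and 1.89 times the empty spots, against 448 and 183 units in the 10 Gy and sham primary tumours, where it was not detected. The raw intensity was thus highest on the array with the brightest background. After quantile normalization, the bounds for miR-497 were at least 1.76-fold higher in metastases in the sham arm and at least 1.46-fold higher in the 10 Gy arm, both under 2-fold. These bounds hold for that scaling alone: over 10 settings the measured log2 difference ran from 0.45 to 3.15 in the sham arm and from -0.41 to 2.04 in the 10 Gy arm, where 9 of 10 were positive. The size of its site difference was therefore not settled, and it is not set against that of miR-195.

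miR-15a and miR-15b differed in their site change. miR-15a averaged 1603 and 3068 units in metastases after 10 Gy and sham, against 485.6 and 717 units in primary tumours after 10 Gy and sham. It was higher in metastases by 1.55 ± 0.17 in the sham arm (2.92-fold) and by 2.68 ± 0.15 in the 10 Gy arm (6.39-fold), and at least 2-fold higher under all 11 settings in both arms, with a 10 Gy range of 2.03 to 3.58. In the 10 Gy primary tumour only 3 of its 5 spots passed the threshold and its mean was 1.17 times the empty spots, so that the second value rests on a level close to background.

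miR-15b averaged 4803 and 10007 units in metastases after 10 Gy and sham, against 3186 and 7923 units in the matching primary tumours. Its normalized difference was 0.12 ± 0.05 in the sham arm and -0.17 ± 0.13 in the 10 Gy arm, and the spots of the 2 sites overlapped in both arms after normalization. It stayed under 2-fold in all 11 settings in both arms, and was 0.34 and 0.68 in the sham and 10 Gy arms without normalization. The change of miR-15a exceeded that of miR-15b by 1.42 ± 0.13 in the sham arm and by 2.85 ± 0.13 in the 10 Gy arm, and this excess was positive under all 11 settings in both arms.

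miR-16, which is made from both of these loci, lay between. It was bright on all arrays, with 10192 and 17776 units in metastases after 10 Gy and sham, against 5422 and 7390 units in the 10 Gy and sham primary tumours. It was higher in metastases by 1.41 ± 0.05 in the sham arm (2.66-fold) and by 0.80 ± 0.10 in the 10 Gy arm (1.74-fold), with spots that did not overlap. The sham difference was at least 1 in 9 of 11 settings, and was 0.88 with cyclic loess and 0.94 when arrays were scaled to the 75th percentile of the probes detected on all 4. The 10 Gy difference was under 1 in all 11 settings and fell to 0.01 with this scaling. miR-15b changed less than miR-16 in both arms, with a difference between their changes of -1.29 ± 0.05 in the sham arm and -0.97 ± 0.08 in the 10 Gy arm. This was negative under all 11 settings, from -1.31 to -0.94 in the sham arm and from -0.98 to -0.29 in the 10 Gy arm. The size of the 10 Gy value thus rests on the scaling. miR-15a and miR-16 differed by 0.13 ± 0.13 in their change in the sham arm and by 1.88 ± 0.11 in the 10 Gy arm. The split of miR-16 between its loci was not measured.

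miR-322 averaged 544 and 1037 units in metastases after 10 Gy and sham. The values in the 10 Gy and sham primary tumours were 444 and 266 units, the first of them below the detection threshold. It was higher in metastases by 1.82 ± 0.15 in the sham arm (3.52-fold) and at least 2.55-fold higher in the 10 Gy arm. That bound is for quantile normalization. Over 11 settings the measured 10 Gy difference ran from 0.50 to 3.21 and was at least 1 in 9, the other values being 0.93 with cyclic loess and 0.50 with the 75th percentile of probes detected on all arrays. Its 9 cluster neighbours on the X chromosome were mostly dim, with 1 and 8 of 9 detected in metastases after 10 Gy and sham, against 1 and 2 of 9 in the 10 Gy and sham primary tumours. Of all 700 probes, 339 and 459 were detected in these metastases samples, against 186 and 337 in the primary tumours. In the sham metastases, all detected neighbours but miR-351 and miR-450a-5p were at most 1.18 times the empty spots. miR-503, which shares part of the seed, was detected in the sham metastases alone. miR-351, whose hairpin is 901 bases from that of miR-322 and whose seed is unrelated, had 590 and 709 units in metastases after 10 Gy and sham, against 675 and 305 units in primary tumours after 10 Gy and sham. It was higher in metastases by 1.04 ± 0.16 in the sham arm, against a difference of -0.62 ± 0.16 in the 10 Gy arm, which was 0.22 without normalization. The site change of miR-322 exceeded that of miR-351 by 0.77 ± 0.29 in the sham arm.

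**Figure D2:**
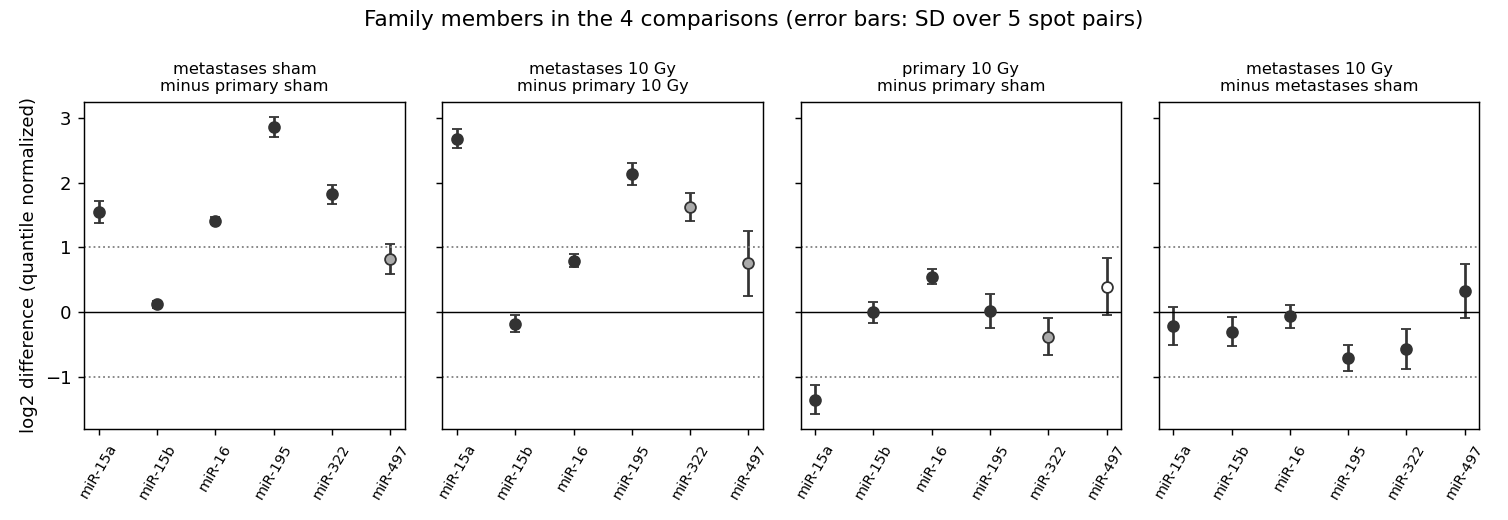
Normalized log2 difference of each member in the 4 comparisons (vertical axis), with the SD over 5 spot pairs as error bars and dotted lines at 2-fold; points are black where the member was detected on both arrays, and grey (detected on 1) or white (on none) where the measured difference involves a level not above background. miR-15a, miR-195 and miR-322 lie above the upper line in both site comparisons, and miR-15b lies between -0.17 and 0.12 in them.

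As a group, 4 of 6 members were at least 2-fold higher in metastases in the sham arm (miR-15a, miR-16, miR-195 and miR-322) and 0 lower, where 11.8% of 473 detected probes were higher and 10.6% lower. In the 10 Gy arm 3 of 6 were at least 2-fold higher (miR-15a, miR-195 and miR-322) and 0 lower, against 10.2% higher and 11.0% lower among 344 probes. The median difference of the members was 1.48 in the sham arm and 1.07 in the 10 Gy arm with bounds for members detected on 1 array, against 0.00038 and 0 over all detected probes. These 3 members passed 2-fold in both arms, as did 8.62% of 325 probes, and 0 members were lower by 2-fold in both arms, as were 4.62% of probes. In quantile-normalized levels, both metastases arrays lay above both primary tumour arrays for 5 of 6 members, all but miR-15b. The same held for 28.3% of the 492 probes detected on at least 1 array. These 5 include miR-497, not detected in either primary tumour, and miR-322, not detected in the 10 Gy primary tumour. The raw intensity of miR-497 was highest in the 10 Gy primary tumour. With 2 arrays against 2, an exact two-sided permutation test cannot give a p below 0.333. For the 4 members detected on all arrays, the site differences averaged over the arms ran from 2.50 for miR-195 through 2.11 for miR-15a and 1.11 for miR-16 to -0.024 for miR-15b. After quantile normalization miR-195 and miR-15a changed places between the arms, since miR-15a had the larger value at 10 Gy. That order rests on the scaling and on a miR-15a level close to background in the 10 Gy primary tumour. Without normalization miR-195 had the larger 10 Gy value, 3.15 against 2.99.

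Summed markers of several other cell types differed between sites as well, though single members did not always follow the sum. The summed intensity above the empty spots of 5 fibroblast and smooth muscle microRNAs was 12010 and 16433 in metastases after 10 Gy and sham, against 3040 and 1675 in primary tumours after 10 Gy and sham. That of the endothelial miR-126-3p and miR-126-5p was 22410 and 32134 in metastases after 10 Gy and sham, against 4282 and 6031 in primary tumours, with miR-126-5p detected in the sham metastases alone. That of 3 erythroid microRNAs was 11988 and 20734 in metastases, against 846 and 2702 in primary tumours, and that of the lymphocyte miR-150 and miR-155 was 1517 and 5674 in metastases, against 354 and 966 in primary tumours. miR-144 (erythroid) was detected in the sham metastases alone, and miR-150 and miR-199a-5p (fibroblast) were not detected in the 10 Gy primary tumour. After normalization, 2 of the 5 fibroblast and smooth muscle microRNAs were at least 2-fold higher in metastases in the 10 Gy arm and 1 lower. The lower one was miR-214, with -1.38 ± 0.19, against 0.51 ± 0.09 in the sham arm. miR-155 differed between sites by 0.47 ± 0.06 in the sham arm and -0.21 ± 0.22 in the 10 Gy arm, while miR-150 was at least 2-fold higher in both. The hepatocyte miR-122 and miR-192 summed to 835 and 291 in metastases after 10 Gy and sham, against 34.7 and 59.9 in primary tumours, where miR-122 was not detected. The leukocyte miR-142-3p and miR-142-5p summed to 67.6 and 189 in metastases after 10 Gy and sham and were not detected in primary tumours. In the 10 Gy metastases miR-142-3p was not detected either. The myeloid miR-223 (4050 and 7354 in metastases after 10 Gy and sham, against 256 and 6792 in primary tumours) and 4 skeletal and heart muscle microRNAs (12986 and 366 in metastases, against 4099 and 9585 in primary tumours) did not separate the sites in both arms. Of the muscle sum of 9585 in the sham primary tumour, 9444 was miR-206 alone. The part of these cells in the family's site difference was not tested. In such bulk RNA, fewer cells of a type and less RNA per cell cannot be told apart.

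**Figure D3:**
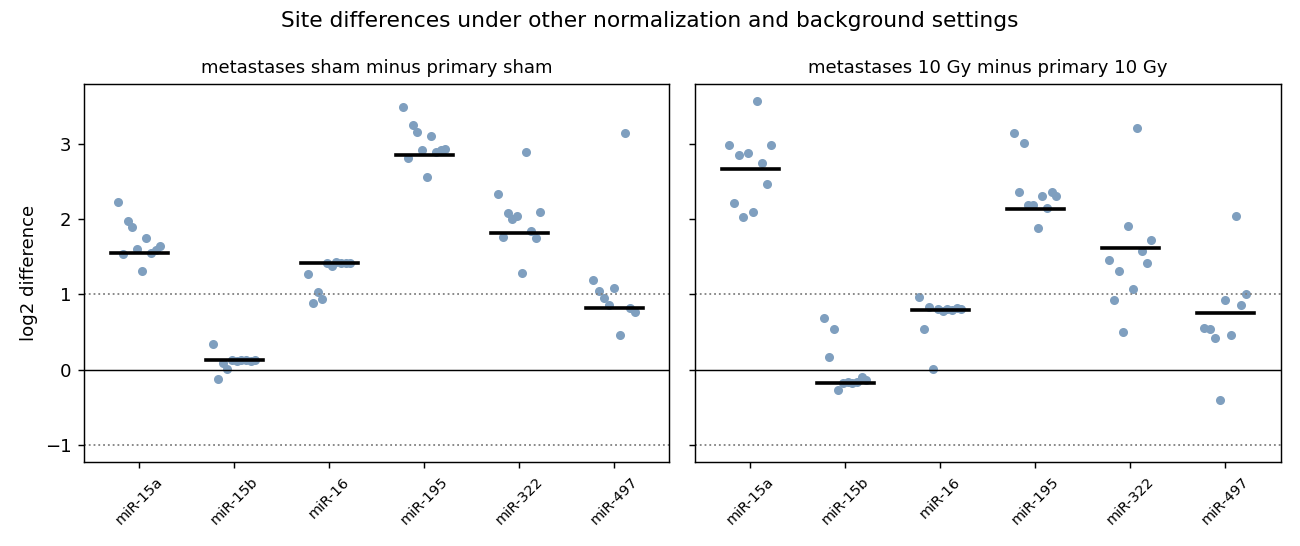
Site differences of the 6 members in the sham arm (left) and 10 Gy arm (right) on the log2 scale. Black bars are the values reported and points the other settings of background and scaling; miR-15a and miR-195 stay above the dotted 2-fold line in every setting and arm, and miR-15b stays under 2-fold.

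Radiation of the primary tumour went with a difference of at least 2-fold in miR-15a alone among the members. At 485.6 units after 10 Gy against 717 units after sham, miR-15a was lower by a difference of -1.34 ± 0.22 (2.54-fold lower), with spots that did not overlap after normalization, and it was negative in all 11 settings, from -2.06 to -0.41. The array after 10 Gy had the brightest empty spots of the 4, and the miR-15a level there was near background. miR-16 was higher by 0.55 ± 0.11, also without overlap of spots, but turned to -0.52 without normalization. miR-15b differed by 0 ± 0.17, both arrays having given it the same rank, and by -1.45 without normalization, since its raw means were 3186 units after 10 Gy and 7923 after sham. miR-195 differed by 0.02 ± 0.26 and took either sign among the settings, its level after 10 Gy being 1.64 times the empty spots. miR-322 was not detected after 10 Gy and miR-497 on neither array, so that neither has a difference between 2 detected levels. miR-322 was counted by its bound of -0.097. Of 5 members detected, 1 was at least 2-fold lower and 0 higher, where 13.0% of 339 probes were lower and 14.7% higher, and the median of the members was 0. The myeloid miR-223 had an intensity above the empty spots of 256 after 10 Gy, against 6792 after sham, and the fibroblast list 3040 after 10 Gy, against 1675. Of the 4 skeletal and heart muscle microRNAs, miR-1, miR-133a and miR-133b were at least 2-fold higher after 10 Gy, and the list median was 2.93. The summed intensity of the 4 above the empty spots was 4099 after 10 Gy, against 9585 after sham. Of the sum after sham, 9444 was miR-206 alone, which differed by -0.98 ± 0.16. The part of these lists in the miR-15a difference was not tested.

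In metastases, no member differed by 2-fold between the 10 Gy and sham arms. miR-195 had the largest value, 3528 units at 10 Gy against 8365 units at sham, a difference of -0.70 ± 0.20 (1.63-fold lower) with spots that did not overlap, and it was negative in all 11 settings. miR-322 differed by -0.56 ± 0.31, miR-15b by -0.30 ± 0.23, miR-15a by -0.21 ± 0.29 and miR-16 by -0.06 ± 0.18, each negative in all 11 settings, and miR-497 by 0.33 ± 0.42. The spots of the arms overlapped for all of these but miR-15b. So 0 of 6 members were higher and 0 lower, where 2.29% of 481 probes were higher and 2.49% lower, and the members' median was -0.25 against -0.017 over all detected probes. miR-195 differed from miR-16 in its change by -0.64 ± 0.04. The summed intensity of 4 skeletal and heart muscle microRNAs above the empty spots was 12986 in metastases after 10 Gy, against 366 after sham, and that of the lymphocyte list 1517, against 5674. Their part was not tested.

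The radiation difference in metastases minus that in the primary tumour was 1.13 ± 0.30 for miR-15a, positive in all settings and as low as 0.14 in 1 of them. It was -0.72 ± 0.26 for miR-195 and -0.61 ± 0.12 for miR-16, both negative in all settings, and -0.30 ± 0.17 for miR-15b, which took either sign. No such value is given for miR-322 and miR-497, since they were not detected in the 10 Gy primary tumour. Among 374 probes, 12.0% had a value of 1 or more and 11.8% a value of -1 or less.

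Between sites, the opposite arms of the chromosome 14 hairpins moved the other way from the family strands. Their sequences are shown because bases 2 to 8, in capitals, differ from the family seed.
miR-15a*: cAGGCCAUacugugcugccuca
miR-16*: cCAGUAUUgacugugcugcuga
miR-15a* is at chr14:61632038-61632059, and the target of the miR-16* probe equals the opposite arm of Mir16-1 at chr14:61631894-61631915, so that it reads the chromosome 14 copy. The opposite arm of Mir16-2 is identical with it at 12 of 22 bases and had no probe. miR-15a* averaged 303 and 220 units in metastases after 10 Gy and sham, 1.20 and 1.24 times the empty spots, against 647 and 815 units in primary tumours after 10 Gy and sham. It was lower in metastases by a difference of -2.52 ± 0.13 in the sham arm (5.75-fold lower) and -1.69 ± 0.25 in the 10 Gy arm (3.22-fold lower). It was negative in all 11 settings, but its size was not settled, from -4.96 to -1.73 in the sham arm and from -3.13 to -1.15 in the 10 Gy arm, the metastases levels being close to the empty spots. The change of miR-15a exceeded that of its opposite arm by 4.07 ± 0.09 in the sham arm (3.04 to 6.71 over the settings) and 4.36 ± 0.14 in the 10 Gy arm (3.25 to 6.70). miR-16* averaged 301 and 222 units in metastases after 10 Gy and sham, against 483 and 1244 units in primary tumours after 10 Gy and sham. Its site difference was -3.15 ± 0.24 (8.88-fold lower) in the sham arm, from -5.58 to -2.26 over the settings, and -0.40 ± 0.10 in the 10 Gy arm, where its mean was 1.19 times the empty spots in metastases and 1.16 times in the primary tumour. In the primary tumour it was lower after 10 Gy by -2.34 ± 0.22 (5.05-fold lower), from -3.13 to -1.29 over the settings, with spots that did not overlap, while miR-16 itself had 0.55 ± 0.11. Of the other arms, miR-15b* was at most 1.20 times the empty spots on each array, and miR-322* differed between sites by 0.45 ± 0.14 in the sham arm. miR-195* and miR-497* had no probe. Of the 4 opposite arms with a probe, 2 were at least 2-fold lower in metastases in the sham arm and 1 in the 10 Gy arm, with 0 higher in either; the shares over all probes were those given above, 10.6% lower and 11.8% higher in the sham arm, and 11.0% lower and 10.2% higher in the 10 Gy arm.

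**Figure D4:**
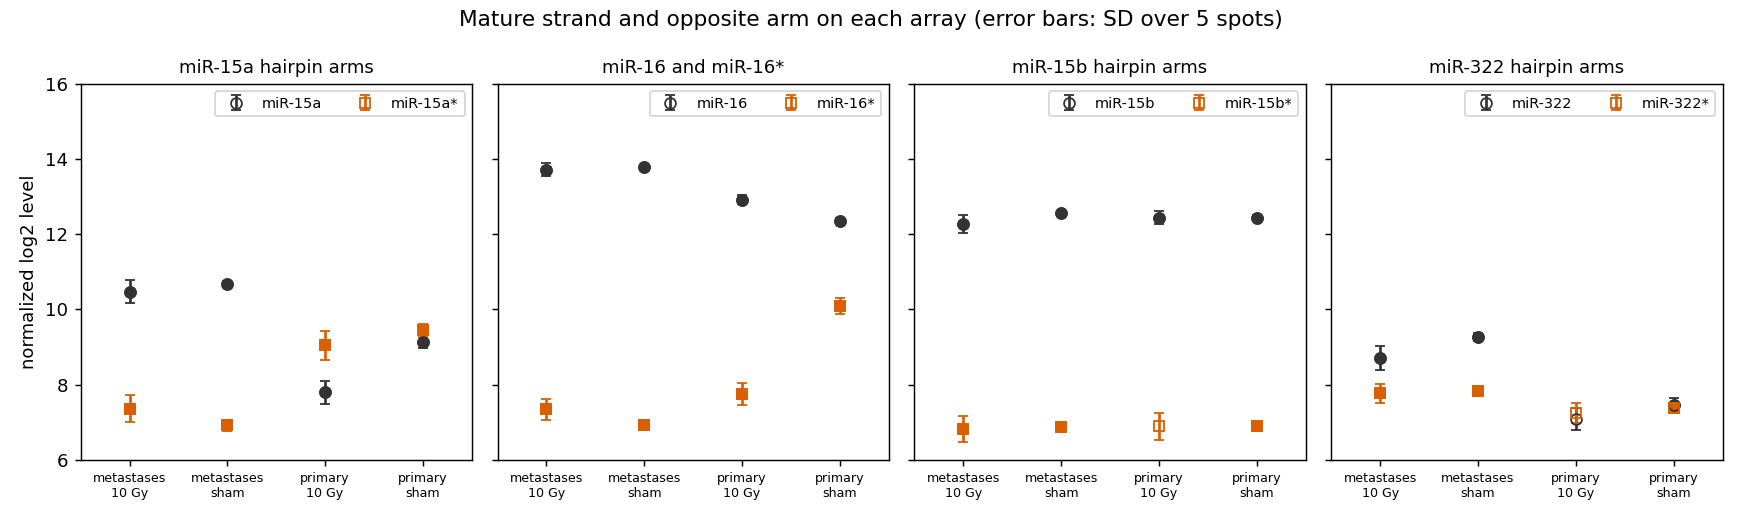
Normalized log2 level (vertical axis) of 4 family strands (circles) and the opposite arms of their hairpins (squares) on each array, open where not detected, with the SD over 5 spots. Each probe is to be read across arrays, not against the other: miR-15a lies higher in metastases, at 10.47 and 10.68 after 10 Gy and sham against 7.79 and 9.14 in primary tumours, and miR-15a* lower, at 7.35 and 6.91 against 9.04 and 9.44.

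miR-103 and miR-107, which lie in the Pank genes and carry the 7 bases 1 place earlier, had smaller site differences in the sham arm than miR-15a, miR-16 and miR-195 after quantile normalization. miR-103 averaged 1767 and 2606 units in metastases after 10 Gy and sham, against 1740 and 1256 units in primary tumours after 10 Gy and sham, and miR-107 had 1599 and 2297 units against 1278 and 1003. Their site differences were 0.40 ± 0.07 and 0.60 ± 0.17 in the sham arm, and -0.96 ± 0.15 and -0.45 ± 0.14 in the 10 Gy arm. The 10 Gy values turned positive without normalization, to 0.16 and 0.57, where the sham values were 1.09 and 1.26. In the primary tumour both were higher after 10 Gy, by 1.46 ± 0.12 and 1.25 ± 0.30, where miR-15a was lower; without normalization these radiation differences were 0.28 and 0.07. miR-1907, which has the family seed, was at most 1.53 times the empty spots on each array.

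For the 4 members detected on all arrays, the probes with the most similar pattern were sought among 179 others, by the root mean square difference of log2 levels after each probe was centred on its mean over the 4 arrays. Nearest to miR-195 were miR-146a (0.15), miR-30b (0.24) and miR-30a (0.37). Nearest to miR-16 were let-7g (0.11), miR-125a-5p (0.13) and miR-29a (0.14), and nearest to miR-15b were miR-31* (0.050), miR-19b (0.051) and miR-709 (0.12). Those of miR-15a were miR-1937a (0.21), miR-1937b (0.30) and miR-26b (0.42). Levels were centred but not scaled, so these distances tend to grow with the size of a probe's differences. They are not compared between members. Each member's nearest probes differed from those of the other 3 members, and no member was among another's nearest 3.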

How the data were processed

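Total RNA (2 µg) was tailed, tagged with Cy3 and hybridised by a service provider on 4 one-colour microfluidic chips, per the labels' protocols. Each deposited scanner table lists, per the file headers, a mean intensity for every spot, with no background removed. These columns write large numbers with commas, which were taken out; they are recorded as another unit for that reason. The authors' value table gives an intensity per probe that differs from the scanner mean by about a constant on each array (correlation at least 0.99996), so background had been subtracted; its background rule and the scanner software were not given in the sources used here. It was used as an alternative with a pseudocount of 50.

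Spots were corrected with normexp (offset 50), taken to log2, averaged over 5 spots and quantile normalized over 700 probes (limma 3.58.1, R 4.3.3). The offset shrinks differences of dim probes. Each comparison is a difference of 2 arrays with no test; probes detected on at least 1 array and differing by at least 1 (2-fold) were counted. A probe detected on 1 array has a bound against the higher of its own dim level and the lowest detected level there, and is counted by it. Alternatives were no normalization, cyclic loess, 75th percentile scaling over all probes or over those detected on all arrays, offset 16, no background correction, subtraction of the median empty spot, removal of the row trend of empty spots, the median of spots, the authors' table, 2 stricter detection rules and leaving out each spot. The number of arrays limits the precision. The script was tested on simulated data. Sequences and gene positions are from RefSeq tables of GRCm38.p6.

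The probes named are the 6 members, the fixed lists (opposite arms, X chromosome neighbours, related seeds, cell type markers) and the 3 nearest patterns of each member detected on all 4 arrays. Members and lists were chosen with earlier results of these data known. Of 6 opposite arms and 6 related seeds, 4 each had a probe.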

Additional observations from a re-analysis of the deposited data

Results flagged for a closer look

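In 6 probes named above the 2 differences of a kind ran in opposite directions, and none of these contrasts was tested, since each group has 1 array. The radiation difference of miR-16* was 0.41 in metastases and -2.34 in the primary tumour, 2.75 apart, and that of miR-15a* was 0.44 and -0.40, 0.84 apart. The site difference of miR-351 was -0.62 in the 10 Gy arm and 1.04 in the sham arm, a contrast of -1.66. That of miR-103 was -0.96 and 0.40 (-1.36), that of miR-107 was -0.45 and 0.60 (-1.05), and that of miR-15b was -0.17 and 0.12 (-0.30), the last with both values under 0.2. For these 4 the opposite direction rests on the normalization: without it the 10 Gy site differences were 0.22, 0.16, 0.57 and 0.68, with the same sign as in the sham arm. The mean of miR-16* was 1.19, 1.25 and 1.16 times the empty spots on the metastases 10 Gy, metastases sham and primary 10 Gy arrays, against 7.25 times on the primary sham array.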

How the results depend on the processing

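With 1 array per group, no paired analysis was possible, and the labels do not give the number of mice whose RNA entered an array. Over the 10 other settings that change levels, 210 of 236 member differences kept their sign. The 236 include the radiation difference of miR-15b in the primary tumour, which was 0 and could not count as kept. They also include differences of miR-497, which was not detected in the primary tumours. The members' median site difference in the sham arm (1.48) was 1.75 without normalization, 1.30 with cyclic loess, 1.30 without background correction, 2.32 with subtraction of the median empty spot and 1.65 in the authors' table. In the 10 Gy arm (1.07) it was 0.74 with loess, 0.20 with the 75th percentile of probes detected on all arrays, 1.23 with offset 16, 0.83 without background correction, 1.94 with subtraction, 0.84 with the median of spots, 1.72 in the authors' table, and 0.88 and 0.62 with detection at the 99th percentile and at 2 times the empty spots; the last gave 1 member at least 2-fold higher instead of 3. Leaving out 1 spot gave 0.98 to 1.23 there and 1.45 to 1.53 in the sham arm. The median radiation difference in the primary tumour (0) was -0.96 without normalization, -0.19 with loess and -0.50 with the 75th percentile of all probes; 2 members were lower without normalization and 0 with the 75th percentile of probes detected on all arrays, without background correction or with detection at 2 times the empty spots. That in metastases (-0.25) was -1.09 without normalization, with 4 members lower, and -0.51 with the 75th percentile of all probes. The measured site change of miR-195 minus that of miR-497, which was not detected in the primary tumours, was 2.04 in the sham arm and reversed to -0.039 with subtraction. The 75th percentile of probes detected on all arrays moved the median of all probes to 1.13 (primary, 10 Gy minus sham), 0.59 (metastases, 10 Gy minus sham), -0.24 (site, sham) and -0.88 (site, 10 Gy); that of all probes moved the first 3 to 0.18, 0.37 and -0.16, and no normalization moved the radiation medians to -0.29 and -0.20. The causes were not tested. Signal over background limits miR-322, miR-497 and, in the 10 Gy primary tumour, miR-15a (1.17 times the empty spots) and miR-195 (1.64 times).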
